A study of Mus musculus with 12 samples.

Results

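The guanylate-binding proteins (Gbp) and the immunity-related GTPases (Irg) are interferon-induced GTPases of cell-autonomous defence, and 10 of their mouse genes were followed by symbol across age in neutrophil-type cells. The 10 listed genes were Gbp2, Gbp3, Gbp5, Gbp7, Igtp, Irgm1, Irgm2, Ifi47, Tgtp1 and Iigp1. Of these, 9 were matched in the count table of 38887 genes, all 9 were among the 15494 genes that passed the expression filter, and Gbp5 is not analysed here. The libraries were made from polyadenylated RNA of Ly6G+ spleen cells of mice aged 2 days, 7 days, 14 days and 6 weeks, with 3 libraries at each age and no treatment or engineered allele given in the labels. The cells of every age are labelled PMN-MDSC, that is, polymorphonuclear myeloid-derived suppressor cells, which are neutrophils able to restrain T cells, and the series concerns a suppressive activity that neutrophils hold for a short time after birth. The labels give no strain or sex and do not tell how many mice stand behind a library or whether replicates were different mice, so the p-values reflect variation among these libraries only, and that may be technical.

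Totals ran from 34495767 to 38795913 counts per library. The 13 neutrophil markers summed to 68765 to 101597 CPM (counts scaled by the normalized size of each library) in the 12 libraries and none was at 0. Single neutrophil markers moved with age in both directions. Csf3r averaged 697 CPM at 7 days and 5974 CPM at 6 weeks, and Mmp8 averaged 4282 CPM at 2 days and 1258 CPM at 6 weeks. Markers of other cells were present too and also moved with age. The 17 monocyte and macrophage markers summed to 574 to 837 CPM at 2 days, 2132 to 2183 CPM at 7 days, 946 to 1464 CPM at 14 days and 4222 to 4520 CPM at 6 weeks. The 12 heat-shock genes summed to 29166 to 34261 CPM at 7 days and to 944 to 1943 CPM in the libraries of the other ages. Y-linked genes had 1816 to 4010 counts in each library at 2 and 7 days and 0 or 1 at 14 days and 6 weeks, while Xist, made from the inactive X chromosome, was found at every age, so the sex of the mice cannot be told apart from age across that boundary. Replicate 2 at 2 days (scaling factor 0.828) and replicate 1 at 14 days (0.918) stood apart from the other libraries of their ages, and results that rest on them are given without them as well.

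Interferon gamma binds the receptor chains Ifngr1 and Ifngr2, the kinases Jak1 and Jak2 pass the signal on, and it reaches the gamma-activated site (GAS) of its target genes, while Irf1 binds the interferon-stimulated response element (ISRE). Both elements lie upstream of many Gbp and Irg genes. The proteins then assemble on vacuoles that hold parasites or bacteria, or on bacteria free in the cytosol, and Gbp proteins also expose bacterial lipopolysaccharide to caspase-11. Among the Irg proteins, the regulators Irgm1, Irgm2 and Igtp (also called Irgm3) sit on the membranes of the cell itself and hold the effectors inactive there, and the effectors Ifi47 (Irgd), Tgtp1 (Irgb6) and Iigp1 (Irga6) load onto the vacuoles. Most of this is known from macrophages and fibroblasts.

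The listed Gbp genes lie in 1 cluster on chromosome 3 and the Irg genes on chromosome 11, except Iigp1. In GRCm38, Gbp2 spans chr3:142620602-142638008, Gbp3 chr3:142560026-142573209, Gbp7 chr3:142530342-142550149, Igtp chr11:58199556-58207591, Irgm2 chr11:58199618-58222782, Irgm1 chr11:48861968-48871683, Ifi47 chr11:49076587-49096974 and Tgtp1 chr11:48985327-48994172. Igtp and Irgm2 overlap on the same strand and share 162 exonic bases. Windows from 250 bases before to 50 bases after the start were taken from RefSeq on GRCm38.p6. Of the 10 listed genes, 9 had their windows searched, and Iigp1 was left out of the search. Both strands were searched for an ISRE core (TTTC, any 2 bases, then TTTC) and a GAS core (TTC, any 3 bases, then GAA). The ISRE core was in the windows of 8 of the 9 genes (all but Ifi47), against 3.44% of 32851 windows, and the GAS core was in the windows of 5 (Gbp5, Gbp7, Igtp, Irgm2 and Tgtp1), against 8.3%. Where several windows belonged to 1 gene they were counted separately in these shares. In Igtp, Irgm2 and Tgtp1 a GAS core stood 2 bases before an ISRE core read on the other strand. This spacing, noticed in these same windows, was found in 5 of the 32851 windows (0.0152%), the other two being those of Tgtp2 and Gm12185, both close relatives of the listed genes. The 61-base stretches with the paired cores show how alike the Igtp and Irgm2 starts are (68.1% identical over 270 aligned bases of the window), and capitals mark the GAS core and then the ISRE core.

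Igtp, chr11:58199491-58199551, plus strand: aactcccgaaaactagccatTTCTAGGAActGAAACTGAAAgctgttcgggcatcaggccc
Irgm2, chr11:58214882-58214942, plus strand: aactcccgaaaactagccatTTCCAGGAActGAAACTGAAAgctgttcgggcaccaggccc
Tgtp1, chr11:48992294-48992354, minus strand: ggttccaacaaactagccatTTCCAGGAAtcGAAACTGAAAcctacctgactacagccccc
Tgtp2, chr11:49064253-49064313, minus strand: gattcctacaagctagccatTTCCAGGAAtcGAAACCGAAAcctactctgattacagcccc
Gm12185, chr11:48927228-48927288, minus strand: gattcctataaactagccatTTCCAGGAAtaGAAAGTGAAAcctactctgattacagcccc

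For Gbp2, Gbp3, Gbp7 and Irgm1, the 50 bases around an ISRE core are shown from the same RefSeq windows, with the core in capitals. In Gbp3 and Irgm1 a further ISRE core overlaps the one shown.

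Gbp2, chr3:142620584-142620633, plus strand: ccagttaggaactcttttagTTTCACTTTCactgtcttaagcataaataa
Gbp3, chr3:142559979-142560028, plus strand: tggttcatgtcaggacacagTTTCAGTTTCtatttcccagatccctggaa
Gbp7, chr3:142530263-142530312, plus strand: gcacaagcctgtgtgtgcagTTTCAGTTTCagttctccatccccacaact
Irgm1, chr11:48871421-48871470, minus strand: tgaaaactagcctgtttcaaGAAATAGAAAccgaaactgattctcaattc

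A match of letters is a description of the sequence and not evidence of binding.

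At 6 weeks, 8 of the 9 genes were higher than at every younger age, and the exception was Tgtp1. Each of the 3 comparisons of 6 weeks called the same 8 genes higher and none lower. The share of all tested genes called higher was 19.7% for 6 weeks against 2 days, 26.6% against 7 days and 9.26% against 14 days, and the share called lower was 20.7%, 24.5% and 9.68% in the same order. Higher at 6 weeks than at each of the 3 younger ages were 5.05% of all tested genes. The median log2 fold change of the 9 genes was 1.89 at 6 weeks over 2 days, 1.56 over 7 days and 1.54 over 14 days, against medians between -0.04 and 0.01 for all tested genes. In those 8 genes all 3 libraries at 6 weeks also lay above all 9 younger libraries, as they did in 9.71% of all tested genes. Fold changes are those of edgeR's quasi-likelihood test with Benjamini-Hochberg adjustment over all tested genes, with standard errors (SE) on the log2 scale, and a call is an adjusted p under 0.05. In bulk RNA, fewer cells of a type and less RNA per cell cannot be told apart.

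**Figure D1:**
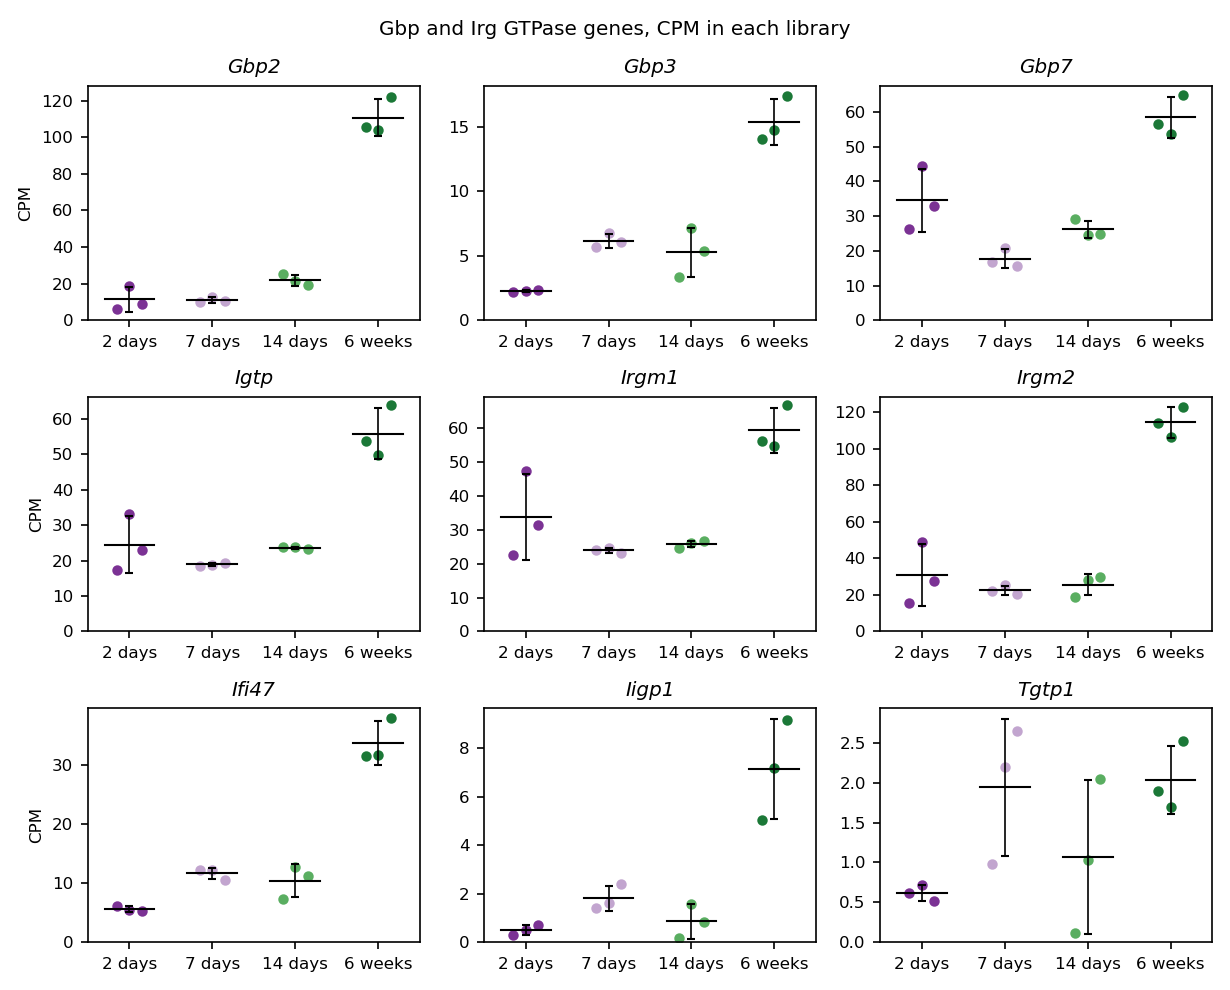
CPM of the 9 genes in each library (points; lines are the mean and SD of 3 libraries) at 2 days, 7 days, 14 days and 6 weeks, 1 panel per gene with a linear axis from 0. In 8 panels the 6-week libraries lie above every younger library, while Tgtp1 stays under 3 CPM and its 6-week libraries overlap those of 7 and 14 days.

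Gbp2, whose protein coats parasite vacuoles and cytosolic bacteria, had 6.18, 19.0 and 9.12 CPM at 2 days, 9.85, 12.7 and 10.5 CPM at 7 days, 25.1, 21.5 and 19.2 CPM at 14 days, and 106, 104 and 122 CPM at 6 weeks. The libraries at 6 weeks held levels clear of every younger library, and replicate 2 at 2 days was high for its age. The log2 fold change of Gbp2 was 3.28 ± 0.32 (adjusted p = 8.27e-06) at 6 weeks over 2 days and 2.33 ± 0.31 (adjusted p = 0.000374) at 6 weeks over 14 days. Gbp3, in the same chromosome 3 cluster, had 2.20, 2.27 and 2.36 CPM at 2 days, 5.66, 6.77 and 6.03 CPM at 7 days, 3.33, 7.13 and 5.34 CPM at 14 days, and 14.0, 14.7 and 17.4 CPM at 6 weeks. Its 2-day libraries were the lowest and lay close together, its 7-day and 14-day libraries overlapped, and its 6-week libraries were clear of all others. Gbp3 reached 2.76 ± 0.24 (adjusted p = 3.25e-06) at 6 weeks over 2 days and 1.54 ± 0.22 (adjusted p = 0.000683) at 6 weeks over 14 days. Gbp7, linked in macrophages to assembly of the NADPH oxidase, had 26.4, 44.3 and 33.0 CPM at 2 days, 16.8, 20.96 and 15.6 CPM at 7 days, 29.1, 24.6 and 24.9 CPM at 14 days, and 56.5, 53.7 and 64.9 CPM at 6 weeks. Here the 7-day libraries were the lowest of the series and the 2-day libraries overlapped those of 14 days. The log2 fold change of Gbp7 was 0.76 ± 0.18 (adjusted p = 0.00474) at 6 weeks over 2 days, 1.72 ± 0.18 (adjusted p = 1.49e-05) over 7 days and 1.16 ± 0.18 (adjusted p = 0.00101) over 14 days.

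All 3 regulators rose at 6 weeks. Irgm2 had 15.8, 49.2 and 27.8 CPM at 2 days, 22.4, 25.2 and 20.3 CPM at 7 days, 19.0, 28.0 and 30.0 CPM at 14 days, and 114, 106 and 123 CPM at 6 weeks. Replicate 2 at 2 days was well above the other libraries of its age, the 3 younger ages overlapped, and the 6-week libraries were far above all of them. Its log2 fold change was 1.89 ± 0.31 (adjusted p = 0.000502) at 6 weeks over 2 days and 2.16 ± 0.32 (adjusted p = 0.000748) at 6 weeks over 14 days. Igtp had 17.4, 33.1 and 23.0 CPM at 2 days, 18.5, 18.9 and 19.4 CPM at 7 days, 23.7, 23.9 and 23.4 CPM at 14 days, and 53.6, 49.8 and 63.8 CPM at 6 weeks. Libraries of 7 days lay within a narrow range, as did those of 14 days, and the 2-day libraries spread across both. Igtp reached 1.19 ± 0.19 (adjusted p = 0.000328) at 6 weeks over 2 days and 1.24 ± 0.19 (adjusted p = 0.000874) over 14 days. Irgm1, whose loss leaves mice susceptible to mycobacteria and impairs blood formation, had 22.4, 47.3 and 31.3 CPM at 2 days, 23.9, 24.6 and 23.2 CPM at 7 days, 24.7, 26.0 and 26.6 CPM at 14 days, and 56.2, 54.8 and 66.8 CPM at 6 weeks. The lowest 6-week library stood above the highest 2-day library, replicate 2, by less than the spread of the 2-day libraries. Irgm1 showed 0.82 ± 0.20 (adjusted p = 0.00689) at 6 weeks over 2 days and 1.20 ± 0.21 (adjusted p = 0.00187) over 14 days, and with replicate 2 at 2 days left out the first of these was 1.14 (adjusted p = 5.3e-05).

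Among the effectors, Ifi47 and Iigp1 rose at 6 weeks and Tgtp1 did not pass the test. Ifi47, a gene needed for resistance of mice to Toxoplasma, had 6.13, 5.43 and 5.29 CPM at 2 days, 12.2, 12.2 and 10.6 CPM at 7 days, 7.35, 12.7 and 11.2 CPM at 14 days, and 31.5, 31.6 and 37.9 CPM at 6 weeks. The 2-day libraries were the lowest, replicate 1 at 14 days was the next lowest, and the 6-week libraries were the highest. Its log2 fold change was 2.58 ± 0.19 (adjusted p = 8.56e-07) at 6 weeks over 2 days and 1.69 ± 0.18 (adjusted p = 0.000108) at 6 weeks over 14 days. Iigp1 (chr18:60376027-60392634), whose protein disrupts Toxoplasma and Chlamydia vacuoles, had 0.306, 0.527 and 0.712 CPM at 2 days, 1.42, 1.61 and 2.41 CPM at 7 days, 0.175, 1.58 and 0.836 CPM at 14 days, and 5.04, 7.18 and 9.18 CPM at 6 weeks. This was a rare transcript, and replicate 1 at 14 days was its lowest library of all. Iigp1 reached 3.79 ± 0.57 (adjusted p = 0.000239) at 6 weeks over 2 days, 1.97 ± 0.50 (adjusted p = 0.00585) over 7 days and 3.03 ± 0.53 (adjusted p = 0.00225) over 14 days. The last of these was 3.79 without replicate 2 at 14 days (adjusted p = 0.00197). Tgtp1, one of the first of these proteins to reach the Toxoplasma vacuole, had 0.613, 0.724 and 0.520 CPM at 2 days, 0.980, 2.20 and 2.64 CPM at 7 days, 0.117, 1.03 and 2.05 CPM at 14 days, and 1.89, 1.70 and 2.51 CPM at 6 weeks. The 6-week libraries lay above those of 2 days but overlapped those of 7 and 14 days, and the log2 fold change at 6 weeks was 1.72 ± 0.65 (adjusted p = 0.0526) over 2 days and 0.07 ± 0.60 (adjusted p = 0.931) over 7 days. Tgtp1 also shares 223 exonic bases with Gm12185 and has a near-identical copy, Tgtp2, so the division of reads between these genes is uncertain.

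Summed counts of Tgtp1 and Tgtp2, a sum chosen after the data were seen, came to 2.30, 2.90 and 2.74 CPM at 2 days, 10.3, 8.31 and 12.1 CPM at 7 days, 3.01, 7.13 and 6.12 CPM at 14 days and 16.3, 25.1 and 23.5 CPM at 6 weeks. For the sum, the 6-week libraries lay above every younger library. Its log2 fold change was 3.03 ± 0.30 (adjusted p = 8.42e-06) at 6 weeks over 2 days, 1.08 ± 0.27 (adjusted p = 0.00553) over 7 days and 2.00 ± 0.28 (adjusted p = 0.000576) over 14 days.

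Before 6 weeks the calls of the listed genes were mixed, and calls in both directions were also common among all tested genes. Whether their mix differed from that of all tested genes was not tested. At 7 days against 2 days, Gbp3, Ifi47 and Iigp1 were higher, Gbp7 was lower, and 5 genes did not pass the test, where 22.9% of all tested genes were called higher and 25.8% lower. Gbp3 changed by 1.44 ± 0.23 (adjusted p = 0.000349), Ifi47 by 1.05 ± 0.18 (adjusted p = 0.000554) and Iigp1 by 1.82 ± 0.56 (adjusted p = 0.0177) on the log2 scale. In these 3 genes and in Tgtp1, 4 of the 9, all 7-day libraries lay above all 2-day libraries, as in 27.4% of all tested genes. The call of Iigp1 was lost when replicate 3 at 7 days was left out (adjusted p = 0.0596). Gbp7 fell, with a log2 fold change of -0.96 ± 0.18 (adjusted p = 0.000928). The regulators had values below 0 that did not pass the test: -0.37 ± 0.18 (adjusted p = 0.116) for Igtp, -0.49 ± 0.20 (adjusted p = 0.0622) for Irgm1 and -0.45 ± 0.31 (adjusted p = 0.248) for Irgm2. These values rested on single 2-day libraries. Without replicate 2 at 2 days they were -0.07 for Igtp (adjusted p = 0.685), -0.15 for Irgm1 (adjusted p = 0.392) and 0.08 for Irgm2 (adjusted p = 0.8), while without replicate 1 at 2 days all 3 regulators were called lower at 7 days. Gbp2 stood at -0.05 ± 0.30 (adjusted p = 0.914), and without replicate 2 at 2 days it was called higher at 7 days, at 0.55 (adjusted p = 0.0223), so 1 library decided its direction. Tgtp1 had 1.65 ± 0.65 (adjusted p = 0.0529). The 7-day libraries were also those with the high heat-shock genes, and the part of these in the differences was not tested.

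At 14 days against 7 days, Gbp2 and Gbp7 were higher and no gene was lower, where 24% of all tested genes were called higher and 21.9% lower. Gbp2 changed by 0.99 ± 0.30 (adjusted p = 0.0176) and Gbp7 by 0.56 ± 0.18 (adjusted p = 0.0222) on the log2 scale. Each of these calls was lost when replicate 1 at 7 days, replicate 3 at 7 days or replicate 1 at 14 days was left out. The genes that were higher at 7 days than at 2 days had values below 0 for this step, -0.22 ± 0.22 (adjusted p = 0.433) for Gbp3, -0.16 ± 0.18 (adjusted p = 0.492) for Ifi47 and -1.06 ± 0.53 (adjusted p = 0.118) for Iigp1, none of which passed the test. At 14 days against 2 days, Gbp2, Gbp3 and Ifi47 were higher and no gene was lower, where 12.8% of all tested genes were called higher and 12.3% lower. Gbp3 differed by 1.21 ± 0.23 (adjusted p = 0.00239), Ifi47 by 0.89 ± 0.18 (adjusted p = 0.00348) and Gbp2 by 0.95 ± 0.30 (adjusted p = 0.0373). The Gbp2 call was lost in 8 of the 12 fits that left out 1 library (adjusted p from 0.0512 to 0.113 in those 8), while without replicate 2 at 2 days it was 1.52 (adjusted p = 8.46e-05). The joint test over the 4 ages called 8 of the 9 genes, all but Tgtp1 (adjusted p = 0.0947), where 69.2% of all tested genes were called.

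**Figure D2:**
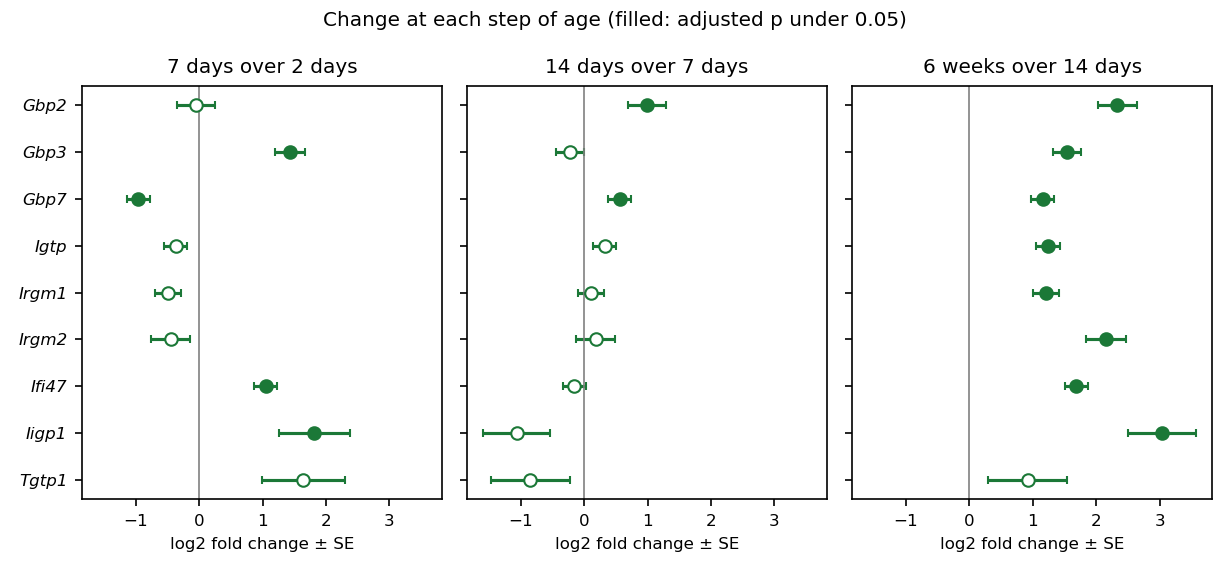
Log2 fold changes (points, filled where called) with SE (bars) of the 9 genes for 3 steps in age: 7 days over 2 days, 14 days over 7 days, and 6 weeks over 14 days. The last step is above 1 for 8 genes, while in the first step Gbp3, Ifi47 and Iigp1 lie above 0 and Gbp7 lies below it.

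Effectors and regulators of the Irg family stood in different proportions at different ages. With each gene taken per kilobase of exon, the effectors Ifi47, Tgtp1 and Iigp1 summed to 2.42 to 2.72 CPM per kilobase at 2 days, 5.49 to 5.88 at 7 days, 3.04 to 5.74 at 14 days and 14.2 to 17.7 at 6 weeks. The regulators Igtp, Irgm1 and Irgm2 summed to 16.7 to 37.8 CPM per kilobase at 2 days, 19.1 to 20.4 at 7 days, 21.1 to 24.2 at 14 days and 62.9 to 76.4 at 6 weeks. The ratio of the effector sum to the regulator sum was 0.163, 0.0664 and 0.0996 at 2 days, 0.284, 0.289 and 0.289 at 7 days, 0.144, 0.240 and 0.220 at 14 days, and 0.211, 0.231 and 0.232 at 6 weeks. The 7-day libraries were the highest and the 2-day libraries lay below those of 7 days and 6 weeks. One 14-day library, replicate 1, fell within the range of the 2-day libraries. The effector sum is mostly Ifi47, and these ratios are given as a description with no test.

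**Figure D3:**
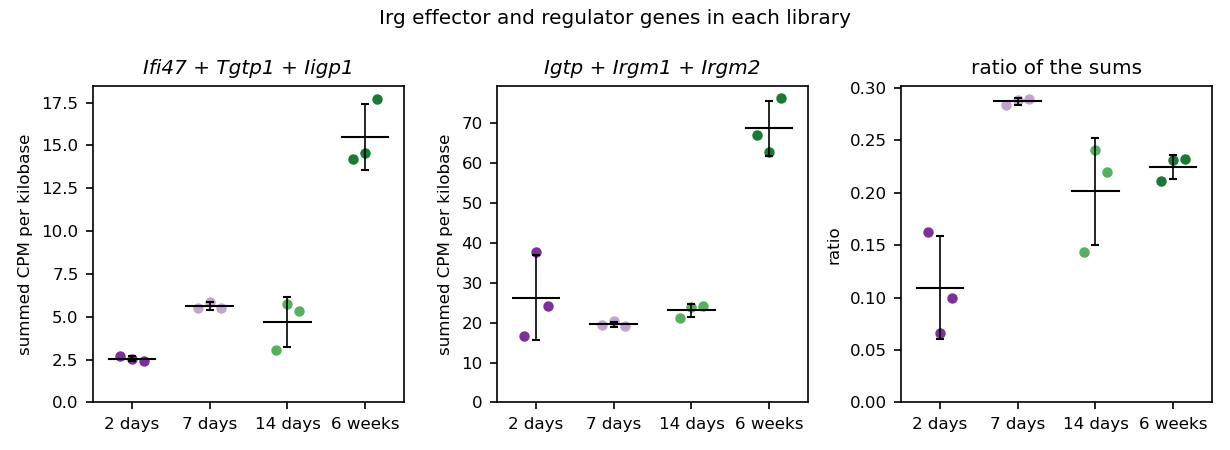
Effector sum (Ifi47, Tgtp1, Iigp1), regulator sum (Igtp, Irgm1, Irgm2), both in CPM per kilobase of exon, and their ratio in each of the 12 libraries by age (points; lines are the mean and SD of 3 libraries). Both sums are highest at 6 weeks, and the ratio is highest at 7 days, at 0.284 to 0.289.

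In order of level per kilobase of exon, Igtp led at 2, 7 and 14 days and Gbp2 led at 6 weeks. This order depends on the length used, all annotated exon bases of a gene, which was 2022 for Igtp and 5810 for Irgm1. By mean CPM alone, Gbp7 led at 2 days (34.6 CPM) and 14 days (26.2 CPM), Irgm1 at 7 days (23.9 CPM) and Irgm2 at 6 weeks (114 CPM). At 2 days Igtp had 12.1 ± 3.93 CPM per kilobase (mean ± SD, n = 3 libraries), followed by Irgm2, Gbp7, Irgm1, Gbp2 and Ifi47, and along this order the libraries of each gene overlapped those of the one before. Gbp3, Tgtp1 and Iigp1 came last at 0.697 ± 0.0244, 0.193 ± 0.0318 and 0.0885 ± 0.0349 CPM per kilobase, each clear of its neighbours. At 7 days the order was Igtp, Irgm2, Ifi47, Gbp2, Irgm1, Gbp7, Gbp3, Tgtp1 and Iigp1, and only Ifi47 with Gbp2, Gbp2 with Irgm1, and Tgtp1 with Iigp1 overlapped. Igtp stood at 9.36 ± 0.219 and Irgm2 at 6.13 ± 0.657 CPM per kilobase there. At 14 days Igtp was first at 11.7 ± 0.140 and Gbp2 next at 8.72 ± 1.19, then Irgm2, Gbp7, Irgm1 and Ifi47, which overlapped from one to the next. At 6 weeks Gbp2 had 44.0 ± 3.95 CPM per kilobase, ahead of Irgm2 at 31.0 ± 2.26 and Igtp at 27.6 ± 3.56, which overlapped each other. Ifi47 followed at 13.6 ± 1.49, Gbp7 and Irgm1 overlapped at 10.4 ± 1.04 and 10.2 ± 1.14, and Gbp3, Iigp1 and Tgtp1 closed the order at 4.71 ± 0.543, 1.23 ± 0.355 and 0.635 ± 0.133 CPM per kilobase.

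The 18 listed relatives of these genes were more mixed. Of the 15 that were tested, 8 were higher and 1 lower at 6 weeks than at 2 days, 7 were higher and 0 lower at 6 weeks than at 7 days, and 5 were higher and 0 lower at 6 weeks than at 14 days. In the same order, 19.7%, 26.6% and 9.26% of all tested genes were called higher, and 20.7%, 24.5% and 9.68% lower. Relatives higher at 6 weeks than at each younger age were 4, where 5.05% of all tested genes were. They were Gbp2b (also called Gbp1), Tgtp2, Gm12250, the gene of Irgb10, which is annotated as a processed pseudogene in the release used, and Gm4951. Gbp2b had 1.15, 1.22 and 0.931 CPM at 2 days, 5.15, 6.27 and 6.29 CPM at 7 days, 2.92, 5.44 and 4.53 CPM at 14 days, and 15.4, 16.8 and 19.0 CPM at 6 weeks. It climbed already in the first week, with 2.42 ± 0.23 (adjusted p = 7.28e-06) at 7 days over 2 days and 1.99 ± 0.21 (adjusted p = 0.0001) at 6 weeks over 14 days. Gm12250 had 1.46, 1.55 and 1.53 CPM at 2 days, 4.22, 4.42 and 3.62 CPM at 7 days, 2.07, 3.43 and 3.53 CPM at 14 days, and 12.6, 13.8 and 17.6 CPM at 6 weeks. Irgb10 loads onto bacteria and vacuoles, and its transcript reached 3.28 ± 0.22 (adjusted p = 5.41e-07) at 6 weeks over 2 days.

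A group of relatives rose at 7 days and fell back at 14 days. Gbp8 changed by 3.44 ± 0.32 (adjusted p = 6.66e-06) at 7 days over 2 days, -1.41 ± 0.29 (adjusted p = 0.00189) at 14 days over 7 days and 1.73 ± 0.29 (adjusted p = 0.00172) at 6 weeks over 14 days. For the same steps Tgtp2 changed by 2.04 ± 0.29 (adjusted p = 0.00014), -0.93 ± 0.28 (adjusted p = 0.0154) and 2.17 ± 0.28 (adjusted p = 0.000344), and Gm4951 by 2.20 ± 0.54 (adjusted p = 0.00518), -1.34 ± 0.50 (adjusted p = 0.0439) and 2.96 ± 0.50 (adjusted p = 0.00171). The fall of Tgtp2 at 14 days was no longer called without replicate 3 at 7 days or without replicate 1 or 3 at 14 days (adjusted p from 0.0501 to 0.0566). The fall of Gm4951 was lost in 9 of the 12 fits that left out 1 library (adjusted p from 0.052 to 0.104), and it was -0.85 without replicate 1 and -2.001 without replicate 3 at 14 days. Without the last of these libraries the value of Gm4951 at 6 weeks over 14 days was 3.61 (adjusted p = 0.00187). The summed macrophage markers were likewise high at 7 days, lower at 14 days and highest at 6 weeks, and their part in these steps was not tested. Gbp9 went the other way, with -1.52 ± 0.17 (adjusted p = 2.18e-05) at 7 days over 2 days and 1.92 ± 0.17 (adjusted p = 6.94e-06) at 14 days over 7 days, and then did not differ beyond the threshold at 6 weeks over 14 days (0.13 ± 0.16, adjusted p = 0.61). Gbp4 was higher than at 2 days both at 7 days (1.16 ± 0.37, adjusted p = 0.0226) and at 6 weeks (1.16 ± 0.38, adjusted p = 0.0264), and each call was lost in 4 of the 12 fits that left out 1 library. Gbp4, Gbp8 and Gbp9 share 60 or 61 exonic bases with one another.

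Gvin1, a very large interferon-inducible GTPase, was higher at 6 weeks than at 7 days (0.95 ± 0.25, adjusted p = 0.00718). Irgq, a relative without a working GTPase domain, passed in none of the 6 pairs of ages, with values from -0.06 to 0.14. Irgc1, made mainly in the testis, was lower at 6 weeks than at 2 days (-1.68 ± 0.36, adjusted p = 0.00275). The predicted genes Gm12185, 9930111J21Rik1 and 9930111J21Rik2 passed in no pair, but without replicate 2 at 2 days 9930111J21Rik1 and 9930111J21Rik2 were called higher at 7 days over 2 days (0.61 and 0.63) and Gm12185 at 14 days over 2 days (1.43). Gm5431 was higher at 14 days (1.45 ± 0.53, adjusted p = 0.0404) and at 6 weeks (1.70 ± 0.53, adjusted p = 0.0176) than at 7 days, calls that were lost in 8 and 2 of the 12 fits that left out 1 library. F830016B08Rik was higher at 7 days (2.53) and at 6 weeks (3.27) than at 2 days, but on very few counts. It had 0, 2 and 2 counts at 2 days, 10, 10 and 8 at 7 days, and 17, 17 and 10 at 6 weeks.

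**Figure D4:**
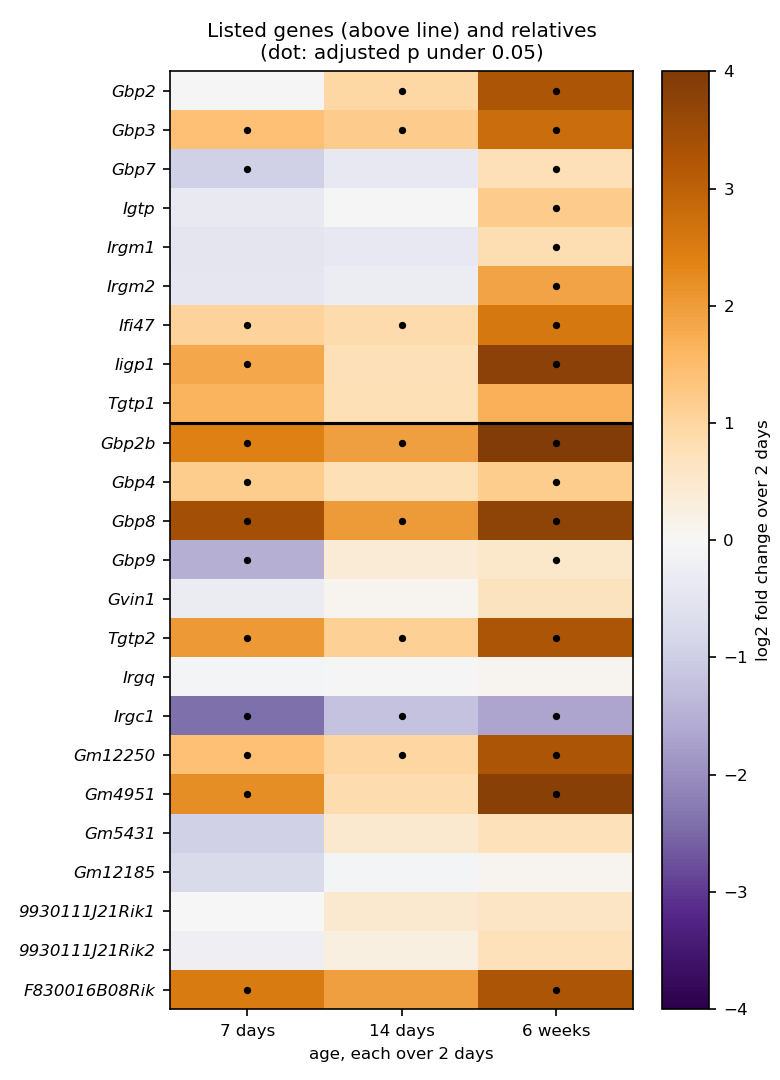
Heat map of log2 fold changes at 7 days, 14 days and 6 weeks over 2 days for the listed genes (above the line) and their tested relatives, 1 row per gene, with a dot where the gene was called. Gbp2b, Gbp8, Gm4951 and Iigp1 have the highest values at 6 weeks, between 3.75 and 3.95, and Irgc1 is below 0 at every age.

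The interferon genes themselves were barely read. Of the 21 listed, 17 were in the table and 1, Ifng, was tested, with 7 to 55 counts in each library and no call in any pair of ages. Its log2 fold change at 6 weeks over 2 days was 0.33 ± 0.49 (adjusted p = 0.623). Of the 16 genes of interferon gamma signalling, 6 were higher and 0 lower at 6 weeks than at 2 days, 11 and 0 at 6 weeks against 7 days, and 6 and 0 at 6 weeks against 14 days. Among all tested genes, 19.7%, 26.6% and 9.26% were called higher in these comparisons, and 20.7%, 24.5% and 9.68% lower. Irf1, the factor that binds the ISRE, had 113, 207 and 154 CPM at 2 days, 117, 129 and 113 CPM at 7 days, 201, 137 and 132 CPM at 14 days, and 329, 209 and 283 CPM at 6 weeks. The 6-week libraries were the highest, though replicate 2 at 6 weeks lay barely above replicate 2 at 2 days. At 6 weeks its log2 fold change was 0.79 ± 0.23 (adjusted p = 0.0167) over 2 days, 1.19 ± 0.23 (adjusted p = 0.00119) over 7 days and 0.81 ± 0.23 (adjusted p = 0.0303) over 14 days. The Irf1 call over 14 days was lost without replicate 1 or 3 at 6 weeks or replicate 2 or 3 at 14 days (adjusted p from 0.0882 to 0.123). The Irf1 call over 2 days was lost without replicate 1 at 6 weeks (adjusted p = 0.0718).

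At 7 days against 2 days the same list had 1 gene higher and 6 lower, where 22.9% of all tested genes were called higher and 25.8% lower. The receptor chains were lower, with log2 fold changes for Ifngr1 of -0.80 ± 0.12 (adjusted p = 0.000255) and for Ifngr2 of -0.53 ± 0.19 (adjusted p = 0.0361), as were the kinase Jak2 (-0.93 ± 0.17), Stat2, and the inhibitors Socs1 (-1.02 ± 0.30) and Socs3 (-2.85 ± 0.23). The Ifngr2 call was lost in 7 of the 12 fits that left out 1 library, with a value of -0.22 without replicate 2 at 2 days (adjusted p = 0.178). The Stat2 call was lost without replicate 3 at 2 days or replicate 1 or 3 at 7 days, and the Socs1 call without replicate 2 at 7 days (adjusted p = 0.0595). The gene that was higher was Irf8, a factor of the monocyte lineage that also acts on interferon targets, at 1.23 ± 0.21 (adjusted p = 0.000438), and it stayed higher at 6 weeks over 2 days at 1.22 ± 0.21 (adjusted p = 0.000563). Ifngr1 was higher again at 14 days over 7 days (1.09 ± 0.13, adjusted p = 4.12e-05). Irf9 was higher at 6 weeks than at 7 days (0.49 ± 0.16, adjusted p = 0.0223) and than at 14 days (0.68 ± 0.16, adjusted p = 0.0119), and both calls were lost without replicate 3 at 6 weeks. The kinase Jak1 was higher at 6 weeks than at 7 days (0.74 ± 0.18, adjusted p = 0.00506) and was not called over 2 days (0.36 ± 0.18, adjusted p = 0.133). Ifngr2 changed later, by 1.00 ± 0.19 (adjusted p = 0.0036) at 6 weeks over 14 days. It was not called at 6 weeks over 2 days (means of 203 and 147 CPM).

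**Figure D5:**
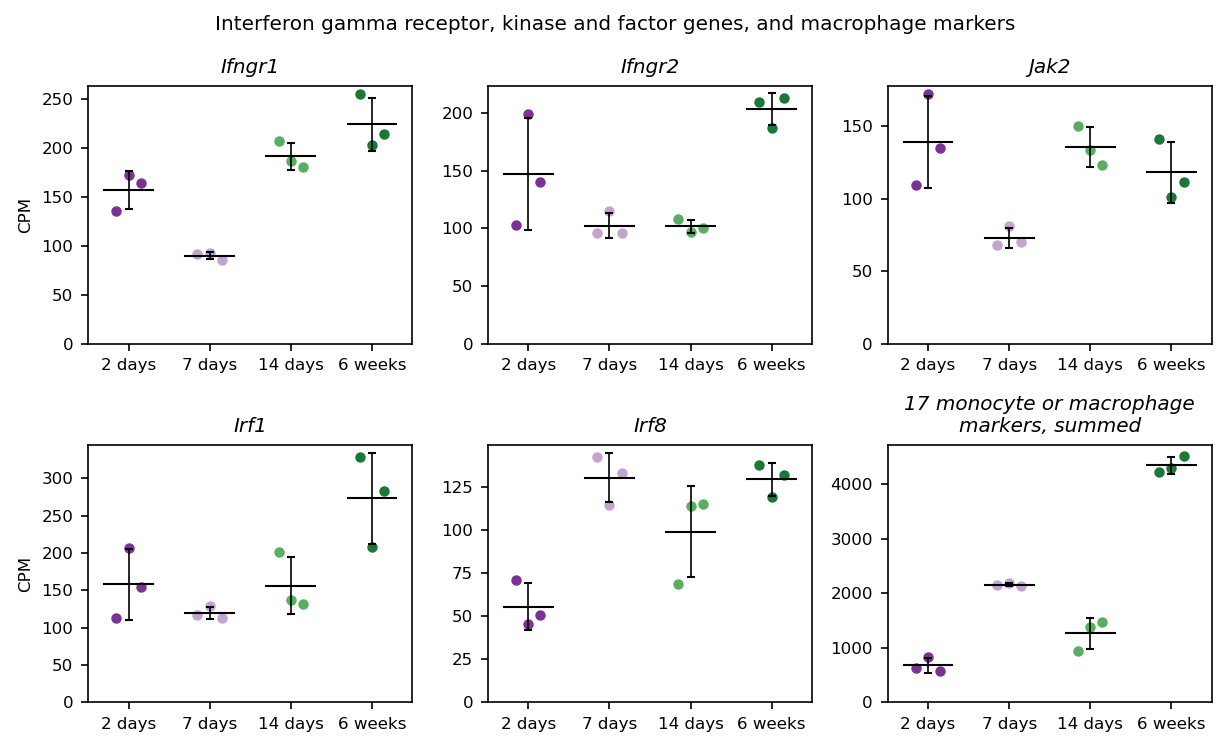
CPM by library and age of the receptor chains Ifngr1 and Ifngr2, the kinase Jak2, the factors Irf1 and Irf8, and the sum of 17 monocyte and macrophage markers (points; lines are the mean and SD of 3 libraries; axes from 0). Irf1 lies at 209 to 329 CPM in the 6-week libraries and at or under 207 CPM in the younger ones, and the marker sum is 4222 to 4520 CPM at 6 weeks.

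Other genes induced by interferon gamma moved in the same direction at 6 weeks. Of 24 tested, 22 were higher and 0 lower at 6 weeks than at 2 days, 22 and 0 at 6 weeks against 7 days, and 15 and 0 at 6 weeks against 14 days. In these comparisons 19.7%, 26.6% and 9.26% of all tested genes were called higher, and 20.7%, 24.5% and 9.68% lower. The chemokine gene Cxcl9 reached 5.35 ± 0.57 (adjusted p = 1.62e-05) at 6 weeks over 2 days, and Cxcl10 3.00 ± 0.21 (adjusted p = 6.84e-07). The value of Cxcl9 was 6.07 without replicate 3 at 2 days (adjusted p = 8.94e-05). Tap1, a subunit of the peptide transporter of class I presentation, was at 0.79 ± 0.11 (adjusted p = 9.88e-05) at 6 weeks over 2 days and -1.42 ± 0.11 (adjusted p = 1.7e-06) at 7 days over 2 days. Slamf8, a surface receptor of myeloid cells, averaged 8.83 ± 0.27 CPM at 6 weeks and 0.36 ± 0.13 CPM at 2 days (SD, n = 3 each), and was at 4.58 ± 0.29 (adjusted p = 3.01e-07). Ciita, the master regulator of MHC class II genes, was at 3.00 ± 0.30 (adjusted p = 1.06e-05) over 2 days but at 0.09 ± 0.27 (adjusted p = 0.863) over 14 days, so most of its difference was already present at 14 days. Nlrc5, which does the same for class I genes, was at 1.74 ± 0.21 (adjusted p = 4.59e-05) over 2 days. At 7 days against 2 days the list divided into 11 higher and 7 lower, where 22.9% of all tested genes were called higher and 25.8% lower. Of the 20 genes induced strongly by type I interferon, 0 were higher and 14 lower at 7 days than at 2 days, and 17 were higher and 0 lower at 6 weeks than at 14 days. Irf7, their transcription factor, had log2 fold changes of -1.71 ± 0.16 (adjusted p = 6.96e-06) at 7 days over 2 days and 1.32 ± 0.16 (adjusted p = 0.000235) at 6 weeks over 14 days. Zbp1, a sensor of nucleic acids, was at -1.45 ± 0.16 (adjusted p = 1.77e-05) and 1.37 ± 0.15 (adjusted p = 0.000125) for the same steps. Some genes of each list answer both kinds of interferon.

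Among 9 inflammasome genes that act with Gbp proteins and Irgb10, 7 were lower and 1 higher at 7 days than at 2 days, 6 higher and 2 lower at 14 days than at 7 days, and 3 higher and 0 lower at 6 weeks than at 14 days. For these steps in order, 22.9%, 24% and 9.26% of all tested genes were called higher, and 25.8%, 21.9% and 9.68% lower. Casp4, the gene of caspase-11, changed by -1.36 ± 0.22 (adjusted p = 0.000378) at 7 days over 2 days, 1.07 ± 0.22 (adjusted p = 0.00211) at 14 days over 7 days and 1.46 ± 0.22 (adjusted p = 0.000923) at 6 weeks over 14 days. The DNA sensor Aim2 was lower at 7 days than at 2 days (-1.15 ± 0.21, adjusted p = 0.000919) and was not called at 6 weeks over 14 days (-0.25 ± 0.21, adjusted p = 0.45). Il1b, the gene of interleukin 1 beta, was at -2.41 ± 0.32 (adjusted p = 9.07e-05) at 7 days over 2 days and 4.67 ± 0.36 (adjusted p = 2.85e-06) at 14 days over 7 days. Of the 11 genes of Atg8 conjugation, the machinery that directs these GTPases to vacuoles, 3 were higher and 1 lower at 6 weeks than at 2 days. The shares of all tested genes in this comparison were 19.7% higher and 20.7% lower. Of the Atg8 proteins in that list, Map1lc3a was among the higher (0.74 ± 0.15, adjusted p = 0.00214), and Map1lc3b was not called (-0.23 ± 0.21, adjusted p = 0.405). Of 9 tested ubiquitin ligases and adaptors found at the vacuoles, 0 were higher and 2 lower at 6 weeks than at 2 days, where 19.7% of all tested genes were called higher and 20.7% lower.

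Markers of other cells also differed at 6 weeks, and not all in the same direction or at the same step of age. Among all tested genes, the shares called higher and lower were 19.7% and 20.7% at 6 weeks against 2 days and 9.26% and 9.68% against 14 days. They were 22.9% and 25.8% at 7 days against 2 days, and 24% and 21.9% at 14 days against 7 days. Of the 13 neutrophil markers, 4 were higher and 3 lower at 6 weeks than at 2 days, and 1 higher and 1 lower than at 14 days. Of the 17 monocyte and macrophage markers, 15 were higher and 0 lower at 6 weeks than at 2 days and 13 higher and 1 lower at 6 weeks than at 14 days. At 7 days 13 were higher than at 2 days, and at 14 days 11 were lower and 2 higher than at 7 days. None of the 17 was at 0 at any age. Of the 14 T and NK cell markers 11 were higher and 2 lower at 6 weeks than at 2 days, and their sums were 150.4 to 187 CPM at 6 weeks and 74.1 to 96.3 CPM at 2 days. The dendritic cell markers summed to 218 to 271 CPM at 6 weeks and 62.3 to 104 CPM at 2 days, with 8 of 9 higher. They already summed to 260 to 304 CPM at 14 days, and 0 were higher or lower at 6 weeks than at 14 days. Of the 9 B cell markers, 4 were higher and 0 lower at 6 weeks than at 2 days, and 1 higher and 0 lower than at 14 days. Of the 9 stromal and endothelial markers, 1 was higher and 7 lower at 6 weeks than at 2 days. Replicate 1 at 14 days had the lowest macrophage sum of its age (946 CPM) and was also the lowest 14-day library in Gbp3, Irgm1, Irgm2, Ifi47, Tgtp1 and Iigp1, but the highest in Gbp2 and Gbp7. Macrophage markers were not alone in this library. Its sums were also the lowest of its age for B cell (187 CPM), T and NK cell (54.7 CPM) and dendritic cell markers (260 CPM). The same held for erythroid markers (75.8 CPM) and for mast cell, eosinophil and basophil markers (123 CPM). It did not hold for stromal and endothelial markers, and the neutrophil sum was the highest of its age (101053 CPM). Of the 13 mast cell, eosinophil and basophil markers, 11 were lower and 2 higher at 6 weeks than at 2 days, and they summed to 143 to 168 CPM at 6 weeks and 2718 to 5212 CPM at 2 days. The 2 higher were Ccr3, with means of 93.1 CPM at 6 weeks and 1.37 CPM at 2 days, and Siglecf, with 31.5 CPM at 6 weeks and 17.5 CPM at 2 days, both known from eosinophils. Epx and Prg2, eosinophil granule genes of the same list, were among the 11 lower, so the eosinophil markers did not move together. The part of these cells in the levels of the GTPase genes was not tested.

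Among 8889 genes with a mean of at least 5 CPM, the genes whose log2 CPM ran most like the mean of the 9 genes over the 12 libraries were Apoe, Cpt2, Efnb1, Plekhb2, Slc9a9, Aamp, Ermp1, Clec2d, Tpp1 and Psmb10. Pearson's r was 0.964 for Apoe, the first, and 0.944 for Psmb10, the last, and the 12 points fall into 4 ages that share libraries and scaling, so these are descriptions. Apoe, which macrophages make in large amounts, averaged 1124 CPM at 6 weeks and 216 CPM at 2 days. Psmb10, a subunit of the immunoproteasome and a listed interferon gamma target, averaged 39.8 CPM at 6 weeks and 28.0 CPM at 2 days.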

How the data were processed

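Whole-number counts per Ensembl gene, deposited by the authors in 1 table, cover 12 libraries of polyadenylated RNA from Ly6G+ spleen cells. The labels' protocols name Trizol extraction, random hexamer priming and PCR. The submitters' processing notes name RSEM 1.2.3, DESeq2 and mm10 without saying what each did. RSEM can split a read between genes, so whole numbers here may be rounded estimates, and strand is not given in the sources used here. This leaves the division of reads uncertain for Tgtp1 and Tgtp2, for Igtp and Irgm2, and for Ifi47, which shares 111 exonic bases with Olfr56.

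Gene identifiers were given symbols from GENCODE M21 (GRCm38, the assembly of mm10), which matched 37570 of 38887. The listed genes and all gene lists were chosen with earlier results of these data known. Groups are the labelled ages. Counts were scaled with trimmed mean of M-values (TMM) factors, filtered with filterByExpr (minimum count 10) and fitted in 1 model of 12 libraries with age as the only term, by edgeR's quasi-likelihood test (edgeR 4.0.16, R 4.3.3), in 6 pairs of ages and 1 joint test. Benjamini-Hochberg adjustment ran over 15494 genes. SE is the absolute log2 fold change over the square root of F. CPM uses TMM-scaled library sizes, and likeness used log2 CPM with a prior count of 2. Totals of 34495767 to 38795913 counts limit precision only for rare transcripts such as Tgtp1 and Iigp1. The procedure was tested on simulated data. Named in the text are all listed genes, all tested relatives, a set of pathway genes given whatever their values, the 2 genes of each pathway list with the smallest joint p, and the 10 genes most like the listed ones. One pathway gene is not reported here. Alternatives were DESeq2 size factors, library totals, no filter, DESeq2 1.42.0, limma-voom (limma 3.58.1), a fit of 2 ages only, a replicate block and leaving out each library.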

Additional observations from a re-analysis of the deposited data

How the results depend on the processing

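The 8 genes called higher at 6 weeks against 2, 7 and 14 days were called in every alternative fit, with adjusted p of at most 0.0327. Between the younger ages the counts depended on single libraries. Leaving out 1 library at a time, the number called higher at 7 days than at 2 days ran from 2 to 4 (5 without both replicate 2 at 2 days and replicate 1 at 14 days, a pair chosen after seeing the data) and the number called lower from 1 to 4. At 14 days against 7 days the number higher ran from 0 to 3 and the number lower from 0 to 1, and at 14 days against 2 days the number lower ran from 0 to 2. The labels do not say whether the replicate numbers pair the libraries. Correlations between same-numbered libraries of 2 ages ran from -0.25 to 0.20 (18 values), which cannot settle this with 3 libraries per age. The 2 over 0.1 were both between 2 and 7 days (0.17 and 0.20). With the replicate block 1 gene was called lower at 14 days than at 7 days. Some log2 fold changes turned positive without replicate 2 at 2 days. Over all fits that left out 1 library, those at 7 days over 2 days ran from -0.28 to 0.55 for Gbp2, -0.16 to 0.61 for 9930111J21Rik1, -0.48 to 0.63 for 9930111J21Rik2 and -0.54 to 0.56 for Clec2d, and those at 14 days over 2 days ran from -0.42 to 0.69 for Clec2d and -0.47 to 1.43 for Gm12185, each with its highest value without that library. With replicate 1 at 14 days left out as well, they were 0.55, 0.61, 0.63, 0.56, 0.77 and 1.34. The construction of these fits removes 1 or 2 libraries, and the cause beyond that was not tested. Over all genes, 3882 were called at 14 days against 2 days, 1952 in a fit of only these ages and 6249 without the pair of libraries, and 2934 at 6 weeks against 14 days, with 1677 to 4869 when libraries were left out. Scaling by library totals moved the median log2 fold change of all genes to 0.14 at 7 days over 2 days and to -0.16 at 6 weeks over 7 days, and the share of calls that were higher at 6 weeks over 7 days to 40.7%, against 52.1%. Depth limits rare transcripts such as Tgtp1, Iigp1, Ifng, F830016B08Rik, Gm4951 and Cxcl9.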

Other observations

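Genes of cytokines that induce interferon gamma, and of their receptor chains, did not move as 1 group. Of the 10 tested, 4 were higher and 4 lower at 6 weeks than at 2 days, and 2 were higher and 5 lower at 7 days than at 2 days. Calls in both directions were also common among all tested genes. The shares called higher and lower were 19.7% and 20.7% in the first comparison and 22.9% and 25.8% in the second. The receptor chain Il18rap, a part of the interleukin 18 receptor, was lower at both ages, at -1.09 ± 0.15 (adjusted p = 0.00011) for 6 weeks over 2 days and -1.90 ± 0.15 (adjusted p = 2.13e-06) for 7 days over 2 days on the log2 scale, and Il18r1, the other chain, was at -0.90 ± 0.10 (adjusted p = 2.89e-05) for 7 days over 2 days. Among ubiquitin ligases, Trim21 was higher at 6 weeks than at 14 days, at 0.72 ± 0.10 (adjusted p = 0.000568), and Lgals8, a galectin that marks broken vacuoles, was at -0.67 ± 0.10 (adjusted p = 0.000236) for 6 weeks over 2 days. All 11 erythroid markers were lower at 6 weeks than at 7 days, with sums of 190 to 638 CPM at 6 weeks and 3663 to 6309 CPM at 7 days. Among all tested genes 24.5% were called lower in this comparison.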
